A study of Rattus norvegicus with 16 samples.

Results

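Messenger RNA at the neuromuscular junction was compared with that of fibre tissue away from junctions in the rectus extraocular muscles of the rat. These muscles turn the eye. The comparison took 8 of the 16 arrays in the series: 4 labelled EOM synapse (EOM_synapse) and 4 labelled EOM fiber (EOM_fiber), chosen by their labels and paired by the number in them, 15, 25, 27 or 29, read here as the rat's. All 31042 probe sets that are not array controls entered, and 10416 named genes passed a filter on low signal. The other 8 arrays were of tibialis anterior, a muscle of the lower hind limb abbreviated TA, in the same rats. The labels give no strain, age, sex or treatment for the rats. Both kinds of tissue were cut by laser from 10 µm cross sections of frozen muscle in which staining for acetylcholinesterase had marked the junctions, so the enzyme itself is no finding here, and its gene had no named probe set. About 1000 junctions, and the same amount of tissue away from them, were pooled per muscle before RNA was extracted. The 4 rectus muscles were frozen attached to the globe, so a sample mixes muscles, layers and fibre types, and a cut of the junction also holds the nerve ending, its glial cap and nearby cells.

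A junction is built by signals from both sides. The nerve ending releases agrin, which acts through LRP4 and the kinase MuSK to cluster acetylcholine receptors under it, and the few muscle nuclei that lie there transcribe receptor subunits and other synaptic genes while nuclei elsewhere along the fibre keep them low. Transcription by these nuclei has been linked to signalling through the kinases MEK and ERK and to ETS factors, which can bind a short promoter element known as the N-box. Terminal Schwann cells, which are glia, cover the ending, and a specialised basal lamina fills the cleft. Extraocular muscle is unusual in keeping embryonic, perinatal and its own myosins in the adult and in holding both singly and multiply innervated fibres.

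Values are levels on a quantile-normalized log2(intensity + 16) scale unless called differences. Differences are EOM_synapse minus EOM_fiber on that log2 scale, so 1 is a 2-fold change and dim genes are understated. The call threshold was an adjusted p of 0.05 (limma with the rat as a block, Benjamini-Hochberg over all 10416 genes), and errors of differences are SE, those of group means SD with n = 4 arrays. Values listed per array stand in the order of rats 15, 25, 27 and 29. Named calls said to be lost without an array were each lost on leaving out at least 1 whole rat as well. Gene lists hold genes of one role or cell type, and a list is described by how many of its measured members were called. The lists were chosen with earlier results of these data known, so their counts describe the members and test nothing. They stand beside 5.62% of all 10416 genes called higher and 4.51% called lower.

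In all, 1055 genes (10.1%) differed, 585 higher at the junction (5.62%) and 470 lower (4.51%). The rises were larger: their median difference was 1.30 against -0.96 for the falls, and 119 rises but 12 falls passed 2 on the log2 scale. All 4 rats shared the direction for 578 of the rises and 460 of the falls. The median difference over all genes was -0.039, with quartiles of -0.34 and 0.30. With arrays centred on a common median instead, that median moved by 0.12 and the split became 546 higher and 142 lower, or 79.4% higher against 55.5%, so which falls were called depended on the scaling. Leaving out any 1 of the 16 arrays kept 326 of the rises and 165 of the falls. Without EOM_synapse 15 the falls numbered 228, without EOM_synapse 25, 27 or 29 they numbered 290, 291 and 246, and without EOM_fiber 15 or 25 they numbered 307 and 280. All calls together numbered 635 and 647 without EOM_synapse 15 or 29. By a count that uses no test, the 4 junction arrays all lay above the 4 fibre arrays for 853 genes (8.19%) and all below them for 929 (8.92%).

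The median intensity of the 8 arrays ran from 36.0 to 57.0, and arrays of a group correlated at 0.867 to 0.949 over all probe sets. The log2 ratio of 3' to 5' signal, a measure of RNA length, was 3.10 in fibre and 3.31 at the junction for actin (exact sign-flip test over the 4 rats, two-sided, p = 0.625) and 0.47 against 0.61 for hexokinase (exact p = 0.75). For GAPDH it was 3.61 in fibre and 3.33 at the junction, lower in 4 of 4 rats, which gives the smallest p that an exact test of 4 pairs allows. Of markers of the labelled tissue, Myh13, the extraocular myosin, stood at 14.66, 13.97, 13.89 and 13.91 in fibre. Chrne, the receptor subunit of adult junctions, rose as described next. That rise is part of the comparison itself and no separate check of the labels.

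Acetylcholine receptor genes rose at the extraocular junction, by amounts that differed widely between subunits. The adult muscle receptor holds alpha, beta, delta and epsilon subunits, and the fetal receptor has gamma in place of epsilon. Of the 5 genes 4 rose and none fell, with a median difference of 1.68. The epsilon gene Chrne stood at 5.30, 4.41, 6.02 and 4.25 in fibre and 11.28, 11.23, 11.38 and 11.55 at the junction, a difference of 6.36 ± 0.32, adjusted p = 1.07e-07. All 4 fibre arrays were dim, on a scale that starts at 4.03, and the junction arrays lay within a narrow band far above them. The alpha gene Chrna1 was already clear in fibre, at 9.21, 8.96, 9.10 and 8.57, and reached 12.91, 12.70, 12.73 and 12.90 at the junction (3.85 ± 0.32, adjusted p = 4.95e-06). The delta gene Chrnd went from 8.78, 7.70, 7.40 and 6.92 to 9.48, 9.51, 9.21 and 9.33 (1.68 ± 0.30, adjusted p = 0.00281). The groups did not overlap, and the fibre array of rat 15 came closest to the junction arrays. The beta gene Chrnb1 stood at 8.52, 8.57, 9.04 and 8.73 in fibre and 9.10, 9.37, 9.65 and 9.62 at the junction, the smallest rise of the set (0.72 ± 0.19, adjusted p = 0.0248). Its call was lost on leaving out any of EOM_fiber 15 or 25, EOM_synapse 25, 27 or 29 (adjusted p then 0.0519 to 0.0989) and with the 8 extraocular arrays alone. The gamma gene Chrng stood at 6.57, 6.19, 6.35 and 4.81 in fibre and 4.70, 4.68, 6.04 and 4.47 at the junction. Its difference of -1.01 ± 0.34 (adjusted p = 0.0818) missed the threshold, though the junction array was the lower one in 4 of 4 rats. Summed over the 5 genes, the linear level was 891 to 1453 intensity units in fibre and 10370.1 to 12017 at the junction.

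The promoters of these genes are shown because their transcripts moved by such different amounts. Each line holds the 250 bases before the RefSeq transcription start in assembly GRCr8, written 5′ to 3′ on the gene's own strand. Capitals mark the N-box core CCGGAA, on either strand, where it reads TTCCGG on the minus one, and the E-box CANNTG, the site form of myogenic factors, which reads the same form on both strands. The matches do not overlap each other.
Chrne (chr10:55834155-55834404, minus strand): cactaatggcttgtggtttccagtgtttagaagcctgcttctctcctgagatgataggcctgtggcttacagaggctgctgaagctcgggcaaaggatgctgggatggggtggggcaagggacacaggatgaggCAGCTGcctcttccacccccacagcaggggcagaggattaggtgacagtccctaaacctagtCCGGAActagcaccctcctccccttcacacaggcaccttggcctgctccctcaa
Chrnd (chr9:95310066-95310315, plus strand): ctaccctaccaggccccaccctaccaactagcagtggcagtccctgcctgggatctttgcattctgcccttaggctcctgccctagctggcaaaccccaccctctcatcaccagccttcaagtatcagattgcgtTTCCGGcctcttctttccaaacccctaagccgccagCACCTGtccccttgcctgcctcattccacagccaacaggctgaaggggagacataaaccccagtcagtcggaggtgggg
Chrna1 (chr3:78877354-78877603, minus strand): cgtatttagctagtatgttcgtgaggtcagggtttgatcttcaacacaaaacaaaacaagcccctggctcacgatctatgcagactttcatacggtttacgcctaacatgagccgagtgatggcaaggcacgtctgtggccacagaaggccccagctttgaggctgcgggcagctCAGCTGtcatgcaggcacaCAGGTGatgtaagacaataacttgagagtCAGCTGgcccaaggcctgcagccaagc
Chrng (chr9:95325734-95325983, plus strand): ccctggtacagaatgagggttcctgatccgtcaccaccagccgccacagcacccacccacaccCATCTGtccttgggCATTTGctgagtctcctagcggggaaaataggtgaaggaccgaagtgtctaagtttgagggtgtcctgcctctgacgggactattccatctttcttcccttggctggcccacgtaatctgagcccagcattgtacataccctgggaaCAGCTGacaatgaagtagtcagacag
Chrnb1 (chr10:55015108-55015357, minus strand): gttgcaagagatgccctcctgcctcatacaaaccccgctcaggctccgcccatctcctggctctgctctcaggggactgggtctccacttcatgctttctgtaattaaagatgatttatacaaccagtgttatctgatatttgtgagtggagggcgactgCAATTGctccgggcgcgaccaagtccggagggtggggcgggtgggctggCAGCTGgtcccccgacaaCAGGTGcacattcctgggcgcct
The Chrne window held 1 N-box, 54 to 49 bases before the start, and 1 E-box 116 to 111 bases before it. The Chrnd window held 1 N-box on the minus strand, 115 to 110 bases before the start, and 1 E-box. Chrna1, Chrng and Chrnb1 each held 3 E-boxes and no N-box in these letters and this window. Of all 33469 RefSeq windows of this length, 12.6% held an N-box core and 65.5% an E-box, so a single match is a description and not a site. Chrna1, with no N-box in its window, rose by 3.85, and Chrne and Chrnd, with 1 each, by 6.36 and 1.68. Whether the matches bear on the size of the rises was not tested.

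**Figure D1:**
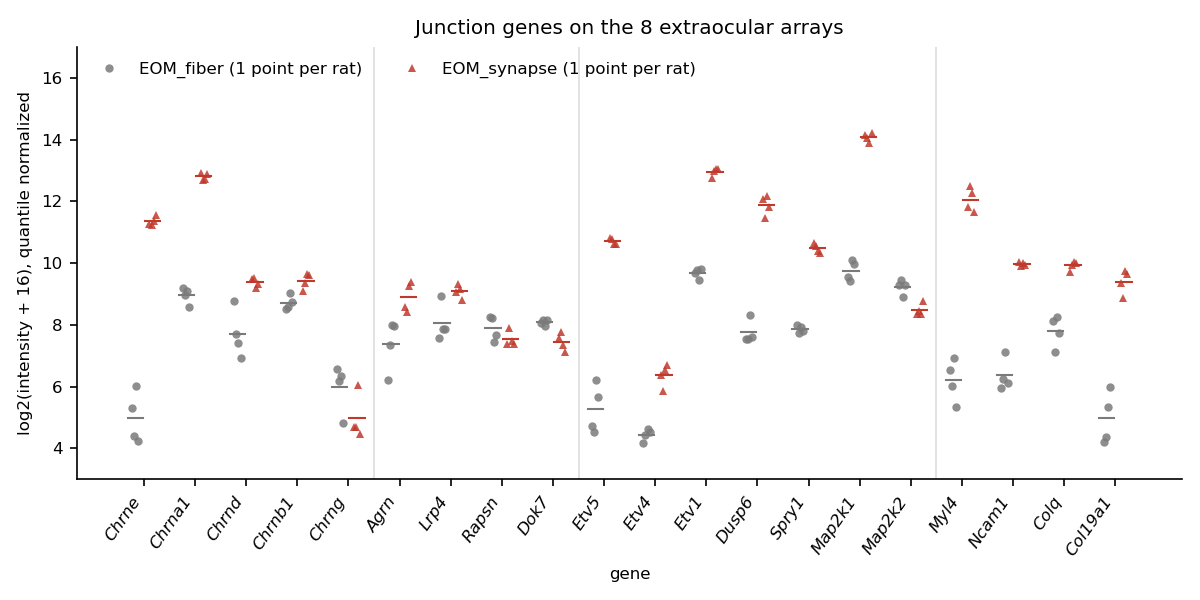
Level of junction genes on the 8 extraocular arrays, as quantile-normalized log2(intensity + 16), with 1 point per rat and a bar at the mean of 4 arrays. Chrne goes from fibre arrays near the floor to junction arrays above 11, while Chrng, Rapsn and Dok7 show no call.

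Of 13 measured genes of the agrin signal and of receptor clustering 4 rose and none fell, where 5.62% of all genes rose, with a median of 0.085. Agrn, which encodes agrin, stood at 6.23, 7.35, 8.005 and 7.97 in fibre and 8.59, 8.43, 9.25 and 9.40 at the junction (1.53 ± 0.30, adjusted p = 0.00566). Its lowest junction array was above its highest fibre array. Lrp4, the agrin receptor, went from 7.58, 8.94, 7.88 and 7.88 to 9.07, 9.33, 9.17 and 8.80 (1.02 ± 0.22, adjusted p = 0.0103). The groups overlapped, since the fibre array of rat 25 was above the junction array of rat 29. That call was lost with no rat block, with the 8 extraocular arrays alone or without rat 15, 27 or 29 (adjusted p then up to 0.0973). The scaffold gene Rapsn, whose protein rapsyn ties receptors together, was not called: it stood at 8.26, 8.22, 7.44 and 7.66 in fibre and 7.39, 7.89, 7.47 and 7.39 at the junction, a difference of -0.36 ± 0.25 (adjusted p = 0.402). Dok7, the adaptor of MuSK, was at 8.05, 8.16, 7.97 and 8.17 and 7.58, 7.78, 7.35 and 7.11 (-0.63 ± 0.20, adjusted p = 0.0673), with every junction array below every fibre array yet no call. Musk itself lay under the filter: its only probe set averaged 5.09 in fibre and 4.66 at the junction and was above the array median on 1 array. The kinase gene Fyn (0.76 ± 0.21, adjusted p = 0.0319) and the adaptor gene Crk (0.65 ± 0.18, adjusted p = 0.0375) were called higher, but Fyn was lost on leaving out any of EOM_fiber 15, 25, 27 or 29, EOM_synapse 15, 25 or 27 (adjusted p then 0.0584 to 0.104) and with the 8 extraocular arrays alone. Crk was lost on leaving out any of EOM_fiber 15 or 25, EOM_synapse 15, 25 or 29, TA_synapse 15 or 25 (adjusted p then 0.051 to 0.116) and with the 8 extraocular arrays alone, with values as deposited or under median centring. The count of 4 fell to 2 without EOM_fiber 15 or 25, or EOM_synapse 15 or 25, to 1 with the 8 extraocular arrays alone, and to 2 with no filter or with the mean of a gene's probe sets. Erbb2, a neuregulin receptor, differed by 0.085 ± 0.34 (adjusted p = 0.911), and Src, Abl1, Pak1, Crkl, Cttn and Dnaja3 were not called, with differences from -0.32 (Dnaja3) to 0.54 (Abl1). Erbb3, Erbb4, Nrg1 and Fgfbp1 lay under the filter.

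Of 16 measured genes of the ERK pathway and the ETS factors it acts on 9 rose and 1 fell, with a median of 1.50. Map2k1, which encodes the kinase MEK1, stood at 9.54, 9.41, 10.12 and 9.97 in fibre and 14.14, 14.06, 13.89 and 14.20 at the junction (4.31 ± 0.20, adjusted p = 6.1e-08). The 4 junction arrays lay within a narrow band, far above the fibre arrays. The sister gene Map2k2, for MEK2, went the other way, from 9.29, 9.45, 8.91 and 9.29 to 8.36, 8.44, 8.36 and 8.76 (-0.75 ± 0.21, adjusted p = 0.0386). This call was lost on leaving out any of EOM_fiber 15, 25, 27 or 29, EOM_synapse 15, 25, 27 or 29, TA_synapse 15 or 25 (adjusted p then 0.0517 to 0.131) and with the 8 extraocular arrays alone, with values as deposited or under median centring. The 3 ETS genes of the PEA3 family all rose. Etv5 went from 4.73, 4.52, 6.21 and 5.67 to 10.81, 10.79, 10.60 and 10.62 (5.42 ± 0.36, adjusted p = 9.66e-07). Etv1 went from 9.69, 9.76, 9.45 and 9.80 to 12.75, 12.97, 13.04 and 13.03 (3.27 ± 0.22, adjusted p = 1e-06), and Etv4 from 4.17, 4.43, 4.63 and 4.53 to 6.37, 5.86, 6.53 and 6.69 (1.92 ± 0.25, adjusted p = 0.000251). Etv4 remained dim at the junction, while Etv1 was bright in both captures. The ETS factor subunits Gabpa (0.68 ± 0.33, adjusted p = 0.214) and Gabpb1 (-0.21 ± 0.36, adjusted p = 0.774), which form the N-box binding factor GABP, were not called.

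Among negative feedback genes of ERK, Dusp6 and 3 Sprouty genes rose. Dusp6, a phosphatase that switches ERK off, stood at 7.55, 7.54, 8.32 and 7.62 in fibre and 12.08, 11.45, 12.17 and 11.81 at the junction (4.12 ± 0.26, adjusted p = 5.27e-07). Its 3 probe sets gave 4.12, 3.50 and 3.47, so the rise did not hang on the probe set chosen. The Sprouty genes, which dampen receptor kinases, followed: Spry1 went from 7.99, 7.74, 7.94 and 7.81 to 10.64, 10.56, 10.39 and 10.34 (2.61 ± 0.18, adjusted p = 1e-06) and Spry2 from 8.64, 8.90, 8.62 and 8.54 to 10.83, 11.28, 10.64 and 9.81 (1.97 ± 0.26, adjusted p = 0.000312). Spry4 differed by 1.07 ± 0.25, adjusted p = 0.0163, a call lost on leaving out any of EOM_fiber 29, EOM_synapse 25 (adjusted p then 0.0502 to 0.0653). Among the ETS genes, the 5 probe sets of Etv1 ran from 1.54 to 3.27, and the pair for Etv5 gave 5.42 and 1.66. Ccnd1, the cyclin D1 gene, differed by 2.41 ± 0.50, adjusted p = 0.00782, a call lost with a pseudocount of 1. Dusp5, Ier3, Erf and Spred3 were not called, with differences from -0.20 (Spred3) to 0.63 (Dusp5). Over the whole list the summed linear level was 3508 to 4066 intensity units in fibre and 34585 to 36582 at the junction.

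Some of the largest changes were among further genes known from muscle nuclei under the junction. Of 17 measured, 11 rose and 1 fell, with a median of 2.35, and the 11 rises held without any 1 of the 16 arrays. This list was chosen with earlier results of these data known. It holds Myl4, Pou3f1 and Hs6st2, all among the 15 largest rises, so its count and median are a description and no test. Myl4, the embryonic and atrial myosin light chain, went from 6.54, 6.02, 6.94 and 5.33 to 11.81, 12.49, 12.26 and 11.67 (5.85 ± 0.31, adjusted p = 1.49e-07). No gene of the myosin heavy chain, slow, fast or sarcomere lists rose. Pou3f1, a POU transcription factor gene also known from myelinating Schwann cells, went from 5.9998, 4.26, 5.21 and 4.85 to 10.17, 9.48, 9.92 and 9.72 (4.74 ± 0.29, adjusted p = 5.27e-07). Ncam1, the neural cell adhesion molecule, went from 5.94, 6.25, 7.14 and 6.12 to 10.04, 9.90, 9.99 and 9.93 (3.60 ± 0.26, adjusted p = 1.76e-06) on its brightest probe set. Its other 2 probe sets were dim and differed by 0.39 and -0.48 without a call. Ufsp1, a protease gene, went from 9.19, 8.73, 8.45 and 8.57 to 12.49, 11.59, 11.42 and 12.32 (3.22 ± 0.26, adjusted p = 4.39e-06). In these 4 genes the groups did not overlap. Besides Prkar1a and Hs6st2, described below, the remaining rises were Ano4 (3.15 ± 0.38), Pdzrn4 (2.94 ± 0.25), the Kruppel-like factor gene Klf5 (2.61 ± 0.40), Phldb2, which encodes the microtubule anchor LL5-beta (2.35 ± 0.26), and the nucleotide exchange factor gene Vav3 (2.01 ± 0.27), with adjusted p from 7.23e-06 (Pdzrn4) to 0.00107 (Klf5). Nr4a3 was the fall (-0.97 ± 0.28, adjusted p = 0.0454), lost on leaving out any of EOM_fiber 15, 25, 27 or 29, EOM_synapse 15, 25, 27 or 29, TA_fiber 15 or 27, TA_synapse 15, 25 or 29 (adjusted p then 0.0531 to 0.155) and with no rat block, with a random rat block, with the 8 extraocular arrays alone, with values as deposited, under median centring or with a pseudocount of 1.

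Prkar1a, a regulatory subunit of protein kinase A, needs its probe sets told apart. The brightest went from 12.65, 12.36, 13.12 and 13.04 to 15.07, 15.20, 15.15 and 15.15 (2.35 ± 0.19, adjusted p = 4.95e-06), with the junction arrays near 15.59, the top of the scale. The other pair gave differences of 3.85 and 5.04, from 10.58 to 14.43 and from 8.54 to 13.58. The brightest probe set gave the smallest rise of the 3.

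Of 19 measured matrix genes of the synaptic cleft, 11 rose and none fell, with a median of 1.12 against -0.039 over all genes, and 8 of the rises held without any 1 array. Without the rat block the rises numbered 7. Col19a1, a collagen gene, went from 4.22, 4.36, 5.35 and 5.98 in fibre to 9.35, 8.86, 9.74 and 9.64 at the junction (4.42 ± 0.36, adjusted p = 4.57e-06). Colq, the collagen tail that anchors acetylcholinesterase, went from 8.12, 7.11, 8.24 and 7.73 to 9.72, 9.95, 10.02 and 10.01 (2.13 ± 0.42, adjusted p = 0.00598), a call lost without rat 29 (adjusted p then 0.0594). Col13a1 and Col25a1, transmembrane collagens known at the junction, went from 4.62, 5.94, 4.16 and 5.97 to 7.28, 6.88, 6.57 and 7.11 (1.79 ± 0.26, adjusted p = 0.00069) and from 5.66, 6.91, 6.83 and 6.69 to 8.65, 8.71, 8.11 and 8.35 (1.93 ± 0.31, adjusted p = 0.0014). In each of these 4 genes every junction array was above every fibre array.

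Laminin genes, which encode the trimers of the basal lamina, were called in part. The alpha chains Lama2, found along the whole fibre, and Lama4, one of the synaptic chains, differed by 1.78 ± 0.27, adjusted p = 0.000824 and 1.76 ± 0.33, adjusted p = 0.004. The synaptic alpha chain Lama5 stood at 4.81, 5.99, 6.11 and 6.06 and 6.53, 6.35, 6.71 and 6.69 (0.82 ± 0.34, adjusted p = 0.141) and missed the threshold. Lamb2, the synaptic beta chain, stood at 10.66, 11.05, 10.44 and 10.32 in fibre and 10.97, 10.85, 11.09 and 11.12 at the junction (0.39 ± 0.24, adjusted p = 0.345), so the chain named for the synapse was not called. The beta chain Lamb1 differed by 1.18 ± 0.27, adjusted p = 0.0145, a call lost on leaving out EOM_synapse 25 (adjusted p then 0.0604) and with no rat block or with a random rat block, and the gamma chain Lamc1 by 1.004 ± 0.18, adjusted p = 0.00309. The linker gene Nid1 differed by 1.24 ± 0.24, adjusted p = 0.00506, lost with no rat block. Nid2 differed by 0.93 ± 0.24, adjusted p = 0.0269, lost on leaving out any of EOM_fiber 15, 25 or 29, EOM_synapse 15, 25, 27 or 29 (adjusted p then 0.0557 to 0.0911) and with no rat block or with a random rat block. Col15a1 differed by 1.12 ± 0.30, adjusted p = 0.0284, lost on leaving out any of EOM_fiber 15, 25, 27 or 29, EOM_synapse 25, 27 or 29 (adjusted p then 0.0599 to 0.106) and with no rat block, with a random rat block or with a pseudocount of 1. The collagen IV genes Col4a1, Col4a2 and Col4a5, with differences from 0.43 (Col4a5) to 0.53 (Col4a2), the perlecan gene Hspg2 (0.05), Col18a1 (1.12) and Bche (1.04), which encodes butyrylcholinesterase, were not called.

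Heparan sulphate, the sugar chain that binds agrin and growth factors in the cleft, was represented by 19 measured genes, of which 7 rose and 1 fell (median 0.24). Hs6st2, which adds sulphate at the 6-O position, went from 4.54, 5.86, 6.15 and 5.35 to 9.29, 10.43, 10.11 and 10.13 (4.52 ± 0.29, adjusted p = 6.46e-07). Its sister Hs6st1 differed by 0.13 ± 0.25 (adjusted p = 0.792). Extl2, a glycosyltransferase that acts on the linker of the chain, went from 7.93, 8.19, 7.56 and 7.92 to 10.53, 10.36, 9.74 and 10.44 (2.37 ± 0.21, adjusted p = 1.21e-05). Among core proteins, Gpc4 (1.82 ± 0.27, adjusted p = 0.000792) and Sdc2 (1.002 ± 0.18, adjusted p = 0.00356) rose, and Gpc1, a glypican, fell from 11.63, 12.03, 11.86 and 11.72 to 11.13, 10.64, 10.54 and 11.04 (-0.97 ± 0.20, adjusted p = 0.00717), a call lost with the 8 extraocular arrays alone, under median centring or without rat 25 or 27 (adjusted p then up to 0.065). Sdc4 (1.02 ± 0.22, adjusted p = 0.0105) was lost with no rat block, with the 8 extraocular arrays alone or without rat 15, 25 or 29 (adjusted p then up to 0.071). Gpc3 (1.26 ± 0.30, adjusted p = 0.0178) was lost on leaving out any of EOM_fiber 15, EOM_synapse 15 or 25 (adjusted p then 0.0598 to 0.0656) and with no rat block or with a pseudocount of 1. The sulphatase gene Sulf2 (1.10 ± 0.31, adjusted p = 0.039) was lost on leaving out any of EOM_fiber 15, 27 or 29, EOM_synapse 15, 27 or 29, TA_synapse 15 or 25 (adjusted p then 0.0516 to 0.132) and with no rat block, with the 8 extraocular arrays alone or with a pseudocount of 1. The chain polymerase genes Ext1 (-0.44) and Ext2 (0.24) and the sulphotransferase genes Ndst1, Ndst2, Hs2st1 and Hs3st1 were not called. Without the rat block the rises numbered 4.

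The cytoskeleton under the membrane gave both directions: 3 of 15 measured genes rose and 3 fell (median 0.039). Ank3, ankyrin G, went from 7.85, 7.77, 8.01 and 8.25 to 9.52, 9.47, 9.40 and 9.02 (1.38 ± 0.19, adjusted p = 0.000475), and Dtna, alpha-dystrobrevin, from 7.996, 7.91, 8.44 and 8.32 to 9.39, 9.64, 9.39 and 9.25 (1.25 ± 0.20, adjusted p = 0.00136). Neither gene's groups overlapped. Utrn, utrophin, differed by 0.88 ± 0.26, adjusted p = 0.0498, lost on leaving out any of EOM_fiber 15, 25, 27 or 29, EOM_synapse 25, 27 or 29, TA_fiber 15, 27 or 29, TA_synapse 15, 25, 27 or 29 (adjusted p then 0.052 to 0.17) and with no rat block, with a random rat block, with the 8 extraocular arrays alone, with values as deposited, under median centring, with a pseudocount of 1 or with a pseudocount of 64. The falls were Sgca, alpha-sarcoglycan (-0.86 ± 0.19, adjusted p = 0.0127), lost with the 8 extraocular arrays alone, under median centring or without rat 15, 25 or 27 (adjusted p then up to 0.0904), the linker plectin, Plec, and beta-spectrin, Sptb. Plec (-0.79 ± 0.18, adjusted p = 0.0135) was lost on leaving out EOM_synapse 27 (adjusted p then 0.0548) and with the 8 extraocular arrays alone or under median centring. Sptb (-0.81 ± 0.21, adjusted p = 0.0257) was lost on leaving out any of EOM_fiber 15, EOM_synapse 15, 27 or 29 (adjusted p then 0.0573 to 0.0988) and with no rat block, with the 8 extraocular arrays alone or under median centring. The falls numbered 5 with a pseudocount of 64, and 0 with the 8 extraocular arrays alone, under median centring or without rat 15. Dag1, dystroglycan, differed by 0.37 ± 0.26 (adjusted p = 0.426), and the nuclear anchors Syne1 and Syne2 by -0.24 and -0.27, without a call.

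Chaperones and enzymes of the endoplasmic reticulum fold secreted and membrane proteins. Of 20 measured genes of the secretory pathway 8 rose and none fell (median 0.75), and 5 were called median centred or with the 8 extraocular arrays alone. Hspa5, the chaperone BiP, went from 11.02, 11.88, 11.85 and 11.82 to 13.08, 12.89, 13.03 and 12.91 (1.34 ± 0.23, adjusted p = 0.00214). Hsp90b1, its partner GRP94, went from 9.62, 9.16, 9.73 and 9.61 to 10.53, 10.98, 11.50 and 11.17 (1.52 ± 0.27, adjusted p = 0.00282). The disulphide isomerase genes Pdia6 (1.26 ± 0.18, adjusted p = 0.000576), Pdia3 (1.29 ± 0.26, adjusted p = 0.00715) and Pdia4 (1.05 ± 0.22, adjusted p = 0.00918) rose likewise, the call of Pdia4 being lost without rat 27 or 29 (adjusted p then up to 0.0928). Canx, calnexin, differed by 0.91 ± 0.19, adjusted p = 0.00918, lost with the 8 extraocular arrays alone, under median centring or without rat 15 or 27 (adjusted p then up to 0.0904). Xbp1 (0.76 ± 0.18, adjusted p = 0.0193) was lost on leaving out any of EOM_fiber 15, EOM_synapse 15 or 27 (adjusted p then 0.0585 to 0.0775) and with the 8 extraocular arrays alone or under median centring, and Sec61a1 (0.75 ± 0.22, adjusted p = 0.0447) was lost on leaving out any of EOM_fiber 15, 27 or 29, EOM_synapse 15, 25, 27 or 29, TA_fiber 15, 27 or 29, TA_synapse 15, 25 or 29 (adjusted p then 0.051 to 0.147) and with no rat block, with a random rat block, with the 8 extraocular arrays alone, under median centring or with a pseudocount of 1. The stress factors Atf4 (0.046 ± 0.23) and Ddit3 (-0.48 ± 0.33), which rise when folding fails, were not called.

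**Figure D2:**
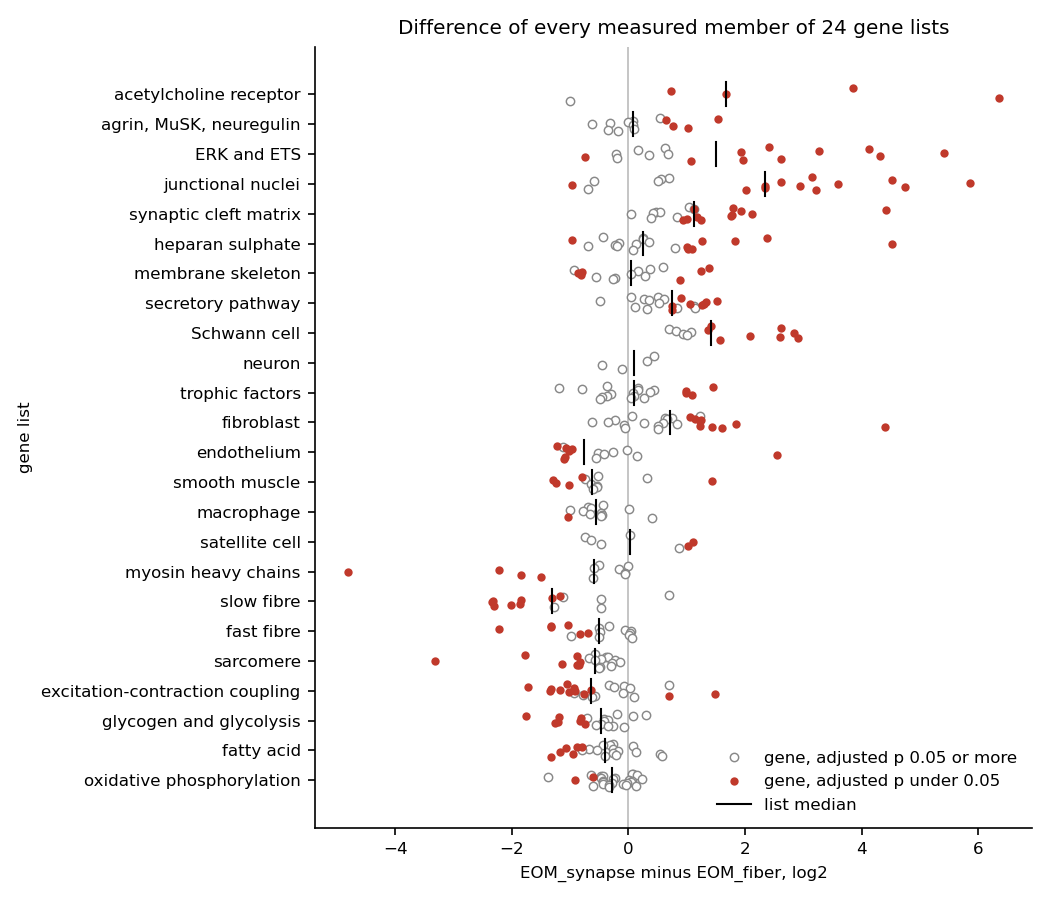
Difference EOM_synapse minus EOM_fiber (log2) of each measured member of the main gene lists. Each point is 1 gene, filled where its adjusted p was under 0.05, and the bar is the list's median, which is 2.35 for junctional nuclei and -1.32 for the slow fibre list. The lists were chosen with earlier results of these data known.

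Markers of other cells were followed as well. In captured tissue, fewer cells of a type and less RNA per cell cannot be told apart. Of 13 measured Schwann cell markers 8 rose and none fell (median 1.42). S100b, a calcium-binding protein of glia, went from 5.31, 5.81, 5.94 and 6.02 to 8.57, 8.61, 8.47 and 9.03 (2.90 ± 0.32, adjusted p = 6.97e-05). Egr2, the factor that drives myelination, went from 7.14, 6.99, 7.29 and 6.72 to 9.80, 9.13, 10.01 and 9.68 (2.62 ± 0.29, adjusted p = 6.97e-05). The myelin genes Mbp (2.83 ± 0.36, adjusted p = 0.000237), Pmp22 (2.09 ± 0.23, adjusted p = 6.97e-05) and Cnp (1.42 ± 0.27, adjusted p = 0.0041) rose, and Prx (2.60 ± 0.57, adjusted p = 0.0105) was lost with a pseudocount of 1 or without rat 27 or 29 (adjusted p then up to 0.0664). Sox10, the lineage factor of these cells, differed by 1.56 ± 0.37, adjusted p = 0.0164, lost on leaving out any of EOM_fiber 25 or 29, EOM_synapse 25 or 29 (adjusted p then 0.0535 to 0.0701) and with the 8 extraocular arrays alone or with a pseudocount of 1. L1cam, an adhesion molecule, differed by 1.37 ± 0.32, adjusted p = 0.0146, lost on leaving out any of EOM_synapse 25 or 27 (adjusted p then 0.0533 to 0.061) and with a pseudocount of 1. With a pseudocount of 1 the rises numbered 5. The list's summed level was 1963 to 2936 intensity units in fibre and 8329 to 15716 at the junction, without overlap.

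Few neuronal markers could be tested. Of 17 marker genes 4 passed the filter, and none was called. Gap43, a protein of growing axons, stood at 6.58, 5.997, 6.62 and 6.87 in fibre and 6.77, 6.74, 7.08 and 7.22 at the junction (0.44 ± 0.23, adjusted p = 0.254). The neurofilament gene Nefm was at 7.59, 7.50, 6.73 and 7.24 and 7.04, 8.41, 6.53 and 5.23, with wide spread at the junction (-0.46 ± 0.37, adjusted p = 0.491). The genes of the cholinergic terminal, Chat, Slc18a3 and Slc5a7, lay under the filter. The part of nerve and glial RNA in the rises of genes that both cell types can express, such as Ncam1, Agrn and Pou3f1, was not tested.

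Trophic and guidance genes gave 4 rises and no fall among 19 measured (median 0.10). Cntf, the ciliary neurotrophic factor made by Schwann cells, went from 5.16, 5.94, 5.88 and 6.17 to 7.11, 7.45, 7.49 and 6.86 (1.44 ± 0.26, adjusted p = 0.00352). Igf1 differed by 0.99 ± 0.21, adjusted p = 0.00988, lost with no rat block, with a random rat block or without rat 15, 27 or 29 (adjusted p then up to 0.0704). Ntrk2, a neurotrophin receptor, differed by 1.10 ± 0.28, adjusted p = 0.0239, lost on leaving out any of EOM_fiber 25 or 29, EOM_synapse 15 or 29 (adjusted p then 0.06 to 0.0845) and with a pseudocount of 1. Igfbp5, a binding protein of IGF, differed by 0.98 ± 0.29, adjusted p = 0.0437, lost on leaving out any of EOM_fiber 15, 27 or 29, EOM_synapse 15, 25, 27 or 29, TA_fiber 15 or 27, TA_synapse 15 or 27 (adjusted p then 0.0501 to 0.1253) and with values as deposited, under median centring or with a pseudocount of 1. The rises numbered 2 without EOM_fiber 29, EOM_synapse 15 or EOM_synapse 29, and with a pseudocount of 1. Bdnf (-0.37), Ntf3 (0.076), Ntf4 (-0.30), Vegfa (0.048) and the Wnt inhibitor Frzb (0.16) were not called.

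Of 24 measured fibroblast and matrix genes 9 rose and none fell (median 0.71), and 5 were called without the rat block. Postn, periostin, varied widely in fibre, at 4.52, 6.10, 9.48 and 9.48, and stood at 12.15, 10.84, 11.97 and 12.22 at the junction (4.40 ± 0.68, adjusted p = 0.00114). The fibre arrays of rats 15 and 25 were far below those of rats 27 and 29. The summed level of the list shared that pattern, at 11303 and 14941 intensity units in fibre of rats 15 and 25 against 33941 and 31273 in rats 27 and 29, and 30610.0 to 54121 at the junction, with overlap between the groups. Lum (1.85 ± 0.29, adjusted p = 0.00129), Pdgfra (1.43 ± 0.22, adjusted p = 0.00107) and Mgp (1.23 ± 0.28, adjusted p = 0.0136) also rose, the call of Mgp being lost without rat 15, 27 or 29 (adjusted p then up to 0.0964). Col5a2 (1.14 ± 0.25, adjusted p = 0.0111) was lost with no rat block, with a random rat block, with the 8 extraocular arrays alone or without rat 15 or 29 (adjusted p then up to 0.0863). Tnc (1.61) was lost on leaving out any of EOM_fiber 15 or 27, EOM_synapse 25 or 27 (adjusted p then 0.0566 to 0.0859) and with a pseudocount of 1. Dcn (1.23) was lost on leaving out any of EOM_fiber 15, EOM_synapse 25 (adjusted p then 0.0505 to 0.0507) and with no rat block or under median centring. Col6a3 (1.24) was lost on leaving out any of EOM_synapse 15 or 27 (adjusted p then 0.0541 to 0.0577) and with no rat block or with a random rat block. Col1a2 (1.06) was lost on leaving out any of EOM_fiber 15 or 29, EOM_synapse 15, 25 or 29 (adjusted p then 0.0543 to 0.0894) and with no rat block, with a random rat block, with the 8 extraocular arrays alone or under median centring. The collagens Col3a1 (0.75 ± 0.26, adjusted p = 0.0909) and Col1a1 (0.06 ± 0.17, adjusted p = 0.866) were not called. The part of fibroblast RNA in the cleft matrix rises was not tested.

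**Figure D3:**
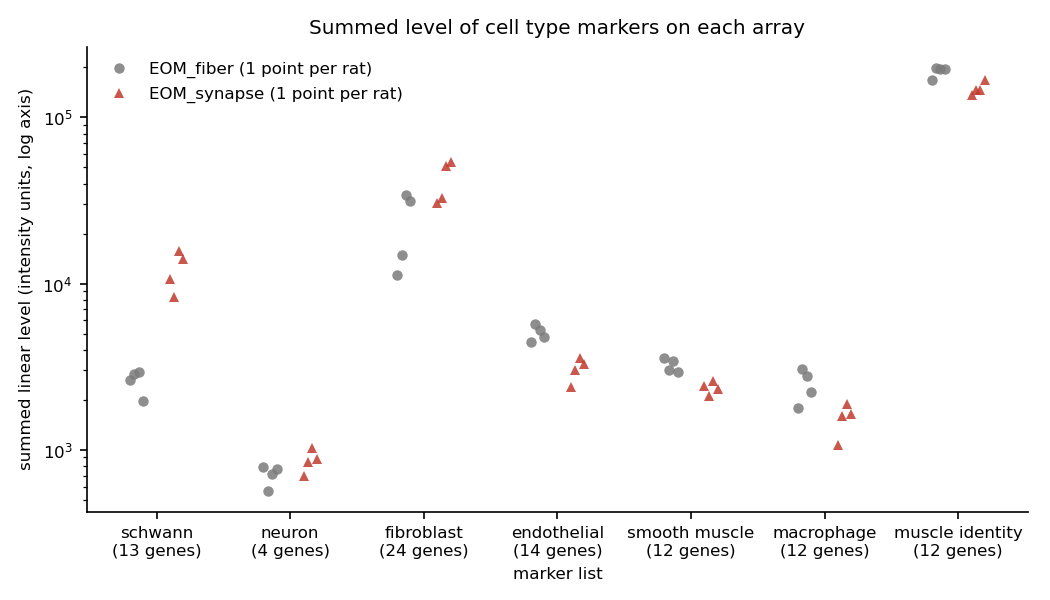
Summed linear level of the measured markers of 7 cell types on each extraocular array, in intensity units on a log axis, with 1 point per rat. Schwann cell markers run from 1963 to 2936 in fibre and from 8329 to 15716 at the junction, while endothelial and smooth muscle sums are lower at the junction without overlap.

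Of 14 endothelial genes, markers of vessels, 6 fell and 1 rose (median -0.76). The water channel Aqp1, known in capillaries and in some muscle fibres, went from 9.99, 10.96, 10.30 and 10.30 to 8.60, 9.48, 9.29 and 9.28 (-1.22 ± 0.26, adjusted p = 0.00932), a call lost under median centring or without rat 25 or 29 (adjusted p then up to 0.0515). Esam (-1.03) was lost on leaving out EOM_synapse 15 (adjusted p then 0.0513) and under median centring. Emcn (-0.96) was lost on leaving out any of EOM_fiber 25, EOM_synapse 29 (adjusted p then 0.0521 to 0.0668) and under median centring. Egfl7 (-1.06) was lost on leaving out any of EOM_fiber 25, EOM_synapse 15 or 25 (adjusted p then 0.0511 to 0.0598) and under median centring. Tek (-1.09) was lost on leaving out any of EOM_fiber 15, 25 or 29, EOM_synapse 15, 27 or 29 (adjusted p then 0.0649 to 0.101) and under median centring or with a pseudocount of 1. Vwf (-1.10) was lost on leaving out any of EOM_fiber 25, 27 or 29, EOM_synapse 15, 25 or 29, TA_fiber 27 or 29, TA_synapse 15, 25, 27 or 29 (adjusted p then 0.0506 to 0.129) and with the 8 extraocular arrays alone, under median centring or with a pseudocount of 1. The 6 falls numbered 2 without EOM_fiber 25 or EOM_synapse 15, 3 without EOM_synapse 29, and 0 median centred. The exception was Plvap, a protein of fenestrated endothelium, which rose from 5.39, 6.69, 6.78 and 4.75 to 8.26, 8.34, 8.17 and 9.03 (2.55 ± 0.37, adjusted p = 0.000727). The endothelial sum, with Plvap in it, was 4445 to 5727 intensity units in fibre and 2375 to 3564 at the junction, without overlap.

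Of 12 smooth muscle and pericyte genes 4 fell and 1 rose (median -0.62). The rise was Mcam, a cell adhesion molecule also known at the junction, from 7.86, 7.23, 6.81 and 6.59 to 8.25, 8.44, 8.73 and 8.81 (1.43 ± 0.29, adjusted p = 0.00657), lost without rat 27 or 29 (adjusted p then up to 0.0703). Of the falls, Lmod1 (-1.30) was lost on leaving out EOM_synapse 15 (adjusted p then 0.0594). Myh11 (-1.24) was lost on leaving out any of EOM_fiber 15, 25 or 27, EOM_synapse 15, 25 or 29 (adjusted p then 0.0563 to 0.0795) and under median centring. Notch3 (-1.02) was lost on leaving out any of EOM_fiber 15, 25 or 29, EOM_synapse 15, 25 or 27, TA_fiber 15, TA_synapse 15 (adjusted p then 0.0502 to 0.116) and with the 8 extraocular arrays alone, under median centring or with a pseudocount of 1. Acta2 (-0.80) was lost on leaving out any of EOM_fiber 15 or 27, EOM_synapse 15, 27 or 29, TA_fiber 27 or 29, TA_synapse 15, 25 or 27 (adjusted p then 0.0515 to 0.151) and with no rat block, with the 8 extraocular arrays alone, with values as deposited, under median centring or with a pseudocount of 1. None of them was called without EOM_synapse 15, 1 without EOM_fiber 15, and 2 without EOM_fiber 25 or 27, EOM_synapse 25, 27 or 29, or TA_synapse 15. The sum was 2956 to 3550.2 intensity units in fibre and 2110.1 to 2586 at the junction.

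Other marker lists held few calls, where 5.62% of all genes rose and 4.51% fell. Of 12 macrophage genes 1 fell, the mannose receptor gene Mrc1 (-1.04 ± 0.30, adjusted p = 0.0392), lost on leaving out any of EOM_fiber 25, 27 or 29, EOM_synapse 15, 25, 27 or 29 (adjusted p then 0.0605 to 0.122) and with no rat block, with the 8 extraocular arrays alone, with values as deposited, under median centring or with a pseudocount of 1, and the median was -0.56. Of 7 satellite cell genes 2 rose, Sdc4, already given, and the chemokine receptor gene Cxcr4 (1.10 ± 0.25, adjusted p = 0.0117), lost on leaving out EOM_synapse 15 (adjusted p then 0.0514). Pax7, the defining gene of satellite cells, had no named probe set. Of 7 tendon genes 1 fell, Scx (-1.05 ± 0.29, adjusted p = 0.034), lost on leaving out any of EOM_fiber 15, 25 or 27, EOM_synapse 25, 27 or 29 (adjusted p then 0.0766 to 0.127) and with the 8 extraocular arrays alone or under median centring. Of 3 red cell genes 1 fell, Slc4a1 (-1.17 ± 0.30, adjusted p = 0.0261), lost on leaving out any of EOM_fiber 15 or 29, EOM_synapse 25, 27 or 29 (adjusted p then 0.0681 to 0.095). None of 4 measured adipocyte genes was called. Of 8 retina genes only Pde6g was measured, at 6.45 ± 0.43 in fibre and 5.96 ± 0.44 at the junction, without a call.

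The called genes of the myosin heavy chain, slow, fast and sarcomere lists all fell. The myosin light chain gene Myl4, given above with the junctional nuclei, rose. Of 11 myosin heavy chain genes 4 fell and none rose (median -0.60). Myh3, the embryonic chain, varied most between rats in fibre, at 13.998, 11.04, 13.15 and 9.14, and was 7.71, 6.71, 6.59 and 7.06 at the junction (-4.81 ± 0.77, adjusted p = 0.00133). Even the lowest fibre array, that of rat 29, was above every junction array. Myh8, the perinatal chain, went from 14.25, 13.47, 13.61 and 12.54 to 12.34, 12.11, 11.80 and 11.61 (-1.50 ± 0.32, adjusted p = 0.0096), lost with a pseudocount of 1 or without rat 25 or 27 (adjusted p then up to 0.0574). Myh2, the chain of fast oxidative fibres, went from 14.59, 13.50, 14.02 and 14.06 to 12.35, 11.83, 11.26 and 11.83 (-2.22 ± 0.25, adjusted p = 8.68e-05). Myh7, the slow chain, went from 13.05, 14.14, 12.79 and 13.43 to 11.25, 11.51, 11.14 and 12.15 (-1.84 ± 0.42, adjusted p = 0.0128), and its call was lost on leaving out EOM_synapse 15 (adjusted p then 0.0598).

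The other chains were not called. Myh13, the extraocular chain, was 13.43, 13.73, 13.43 and 13.44 at the junction, against the fibre values given above (-0.60 ± 0.33, adjusted p = 0.281). Every junction array was below every fibre array, but by little except in rat 15. Myh4, the fastest chain, stood at 14.75, 15.33, 14.63 and 14.69 and 14.96, 14.96, 14.59 and 14.63 (-0.067 ± 0.17, adjusted p = 0.855), and Myh1 at 13.39, 13.25, 13.05 and 12.94 and 13.02, 12.99, 12.38 and 12.23 (-0.50 ± 0.23, adjusted p = 0.19). The Myh4 arrays lay near the top of the scale, at 15.59, and those of Myh1 lower. Myh6, the cardiac alpha chain, had a difference of -0.062 ± 0.62, and the non-muscle chains Myh9 and Myh14 differed by -0.60 and -0.17. Myh10, also non-muscle, was not called either.

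The slow fibre list had the lowest median of all lists described here, -1.32: 8 of 13 fell and none rose, and the falls numbered 5 without EOM_synapse 15. The slow myosin light chains Myl3 and Myl2 went from 10.85, 10.95, 10.17 and 10.87 to 8.05, 8.37, 7.93 and 9.10 (-2.35 ± 0.37, adjusted p = 0.00127) and from 9.01, 10.13, 9.03 and 9.70 to 6.32, 7.12, 6.998 and 8.11 (-2.33 ± 0.44, adjusted p = 0.00453). The slow troponins Tnni1 and Tnnc1 went from 12.05, 12.42, 10.98 and 12.15 to 9.23, 9.63, 9.06 and 10.42 (-2.31 ± 0.37, adjusted p = 0.00135) and from 12.38, 12.17, 11.06 and 11.69 to 9.48, 9.95, 9.50 and 10.28 (-2.02 ± 0.43, adjusted p = 0.00918), the last call being lost without rat 15 (adjusted p then 0.0676). In none of these 4 genes did the groups overlap. Myoz2, a calcineurin partner of the Z-disc, differed by -1.86 ± 0.31, adjusted p = 0.00174. Lmod2 (-1.32) was lost on leaving out any of EOM_fiber 25 or 29, EOM_synapse 15 or 27 (adjusted p then 0.0517 to 0.0923) and under median centring. Casq2 (-1.17) was lost on leaving out any of EOM_fiber 15, 25 or 29, EOM_synapse 15, 27 or 29, TA_synapse 15 or 25 (adjusted p then 0.0516 to 0.139) and with no rat block, with a random rat block, with the 8 extraocular arrays alone, under median centring or with a pseudocount of 1. The slow troponin Tnnt1 (-1.27 ± 0.41, adjusted p = 0.0683) missed the threshold. Atp2a2, the slow calcium pump, had the opposite sign (0.69 ± 0.26, adjusted p = 0.106).

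Of 16 measured fast fibre genes 6 fell and none rose (median -0.50). The falls numbered 10 with values as deposited and 3 to 4 on leaving out 1 rat. Mybpc2, fast myosin-binding protein C, went from 12.98, 13.18, 12.79 and 13.16 to 11.60, 11.53, 11.24 and 12.40 (-1.33 ± 0.20, adjusted p = 0.000892), and Actn3, the fast Z-disc actinin, from 13.09, 14.34, 13.87 and 14.46 to 12.44, 13.04, 12.78 and 13.37 (-1.03 ± 0.20, adjusted p = 0.00558), lost without rat 25 (adjusted p then 0.0549). Casq1, the fast calcium store protein, went from 13.11, 13.14, 12.61 and 13.12 to 11.55, 11.45, 11.29 and 12.39 (-1.32 ± 0.21, adjusted p = 0.00126). Pvalb, parvalbumin (-0.83), was lost on leaving out any of EOM_fiber 15 or 25, EOM_synapse 25 or 27 (adjusted p then 0.0706 to 0.0764) and with no rat block, with a random rat block or with the 8 extraocular arrays alone. Myoz1 (-0.70) was lost on leaving out any of EOM_fiber 25 or 27, EOM_synapse 15, 25 or 27 (adjusted p then 0.053 to 0.0994) and with the 8 extraocular arrays alone. The troponin Tnnc2, the light chain Myl1 and the tropomyosin Tpm1 averaged 15.23 ± 0.035, 15.28 ± 0.10 and 15.05 ± 0.083 in fibre and differed by 0.015, 0.045 and 0.055, on a scale that ends at 15.59. The groups of Actn3 overlapped, while those of Mybpc2 and Casq1 did not.

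**Figure D4:**
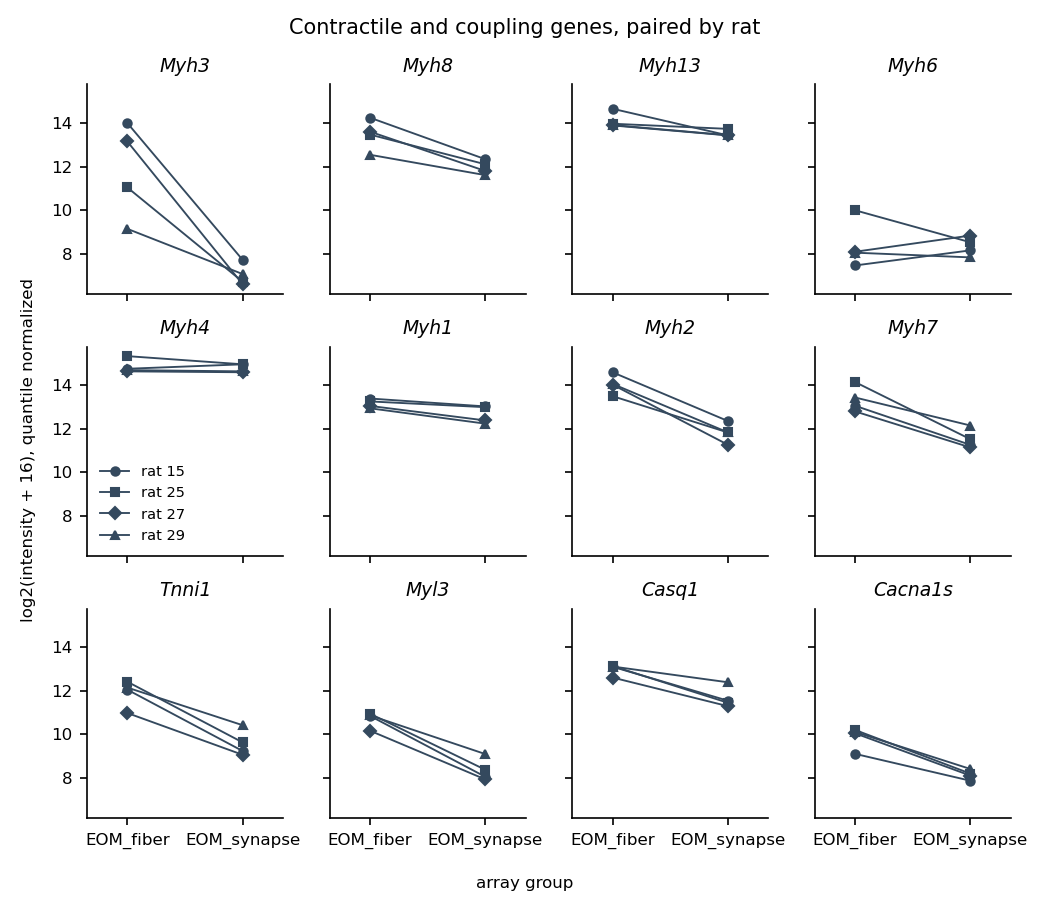
Level of 12 contractile and coupling genes as quantile-normalized log2(intensity + 16), with the fibre and the junction array of each rat joined by a line. Myh3, Myh2 and Tnni1 fall in all 4 rats, whereas the lines of Myh4 and Myh6 run both ways.

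Of 12 measured general markers of muscle 3 fell and none rose (median -0.49): Casq1, given above, Pvalb, given above, and the calcium release channel gene Ryr1 (-0.76 ± 0.21, adjusted p = 0.0335), lost on leaving out any of EOM_fiber 15, 25, 27 or 29, EOM_synapse 15 or 25 (adjusted p then 0.0586 to 0.122) and with the 8 extraocular arrays alone or under median centring. The falls numbered 1 without EOM_fiber 25 and 5 without TA_synapse 29. Creatine kinase, Ckm, stood at 15.02, 15.15, 15.38 and 15.33 and 14.59, 14.79, 15.02 and 15.33 (-0.29 ± 0.17, adjusted p = 0.328), and skeletal actin, Acta1, at 14.23, 14.63, 14.79 and 14.83 and 14.06, 14.23, 14.20 and 14.44 (-0.39 ± 0.18, adjusted p = 0.189). The list's sum was 168586 to 197970.0 intensity units in fibre and 136072 to 167429 at the junction, without overlap. The part of a lower share of muscle RNA in the falls was not tested.

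Among sarcomere genes 7 of 19 fell and none rose (median -0.57). Myom2, a protein of the M-band, went from 9.44, 10.73, 9.84 and 11.29 to 6.64, 7.61, 6.03 and 7.73 (-3.33 ± 0.32, adjusted p = 2.04e-05), and the Z-disc gene Pdlim3 from 12.15, 12.31, 11.97 and 12.28 to 10.18, 11.28, 11.30 and 11.39 (-1.14 ± 0.25, adjusted p = 0.0106), a call lost without rat 15 or 25 (adjusted p then up to 0.108). Myom1, the sister of Myom2, differed by -0.23 ± 0.21 (adjusted p = 0.537). The stretch-response gene Ankrd2 (-1.78) was lost on leaving out any of EOM_fiber 15 or 25, EOM_synapse 15 or 27 (adjusted p then 0.0566 to 0.0816). Cryab (-0.89) was lost on leaving out any of EOM_fiber 15 or 25, EOM_synapse 15, 25, 27 or 29, TA_fiber 27 or 29, TA_synapse 15 or 29 (adjusted p then 0.0528 to 0.152) and with no rat block, with the 8 extraocular arrays alone, under median centring or with a pseudocount of 1. Synpo2l (-0.88) was lost on leaving out EOM_synapse 25 (adjusted p then 0.0505) and under median centring. Pdlim5 (-0.84) was lost on leaving out any of EOM_fiber 25 or 29, EOM_synapse 15 or 29 (adjusted p then 0.05 to 0.0527) and with no rat block, with the 8 extraocular arrays alone or under median centring. Myot (-0.82) was lost on leaving out any of EOM_fiber 25 or 29, EOM_synapse 25 or 27 (adjusted p then 0.0524 to 0.0612) and with the 8 extraocular arrays alone or under median centring. The falls numbered 3 without EOM_fiber 25, 4 without EOM_synapse 15, 25 or 27, and 3 median centred. Titin, Ttn (-0.48 ± 0.25), and nebulin, Neb (-0.28 ± 0.18), were not called.

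The machinery that couples the membrane signal to calcium release gave more falls than rises. Of 23 measured genes 10 fell and 2 rose (median -0.64). The falls numbered 5 without EOM_synapse 15 and 4 median centred. Cacna1s, the voltage sensor of the transverse tubule, went from 9.11, 10.20, 10.05 and 10.11 to 7.87, 8.20, 8.10 and 8.41 (-1.72 ± 0.26, adjusted p = 0.000922). Jph2, which holds tubule and store together, went from 11.17, 10.31, 10.29 and 10.48 to 9.15, 9.22, 9.17 and 9.31 (-1.35 ± 0.26, adjusted p = 0.00459). Every junction array of both genes was below every fibre array. Asph, which also encodes junctin (-1.05 ± 0.23, adjusted p = 0.0101), was lost with the 8 extraocular arrays alone, under median centring or without rat 27 or 29 (adjusted p then up to 0.0831), and Cacnb1, the beta subunit of the sensor (-0.93 ± 0.21, adjusted p = 0.0117), was lost under median centring or without rat 15 or 29 (adjusted p then up to 0.0914). Casq1, Casq2 and Ryr1 stand with the other lists: Casq2 was lost on leaving out any of EOM_fiber 15, 25 or 29, EOM_synapse 15, 27 or 29, TA_synapse 15 or 25 (adjusted p then 0.0516 to 0.139) and with no rat block, with a random rat block, with the 8 extraocular arrays alone, under median centring or with a pseudocount of 1. Ryr1 was lost on leaving out any of EOM_fiber 15, 25, 27 or 29, EOM_synapse 15 or 25 (adjusted p then 0.0586 to 0.122) and with the 8 extraocular arrays alone or under median centring. Jsrp1 (-1.02) was lost on leaving out EOM_synapse 15 (adjusted p then 0.0544) and with the 8 extraocular arrays alone or under median centring. Jph1 (-0.92) was lost on leaving out any of EOM_fiber 27 or 29, EOM_synapse 15, 25, 27 or 29, TA_fiber 15, 27 or 29, TA_synapse 15 or 27 (adjusted p then 0.0503 to 0.137) and with the 8 extraocular arrays alone, with values as deposited, under median centring or with a pseudocount of 1. Hrc (-0.64) was lost on leaving out any of EOM_fiber 25 or 27, EOM_synapse 15, 25 or 29, TA_fiber 29 (adjusted p then 0.0512 to 0.117) and with no rat block, with the 8 extraocular arrays alone or under median centring. The rises were Ryr3, the minor release channel (1.48), lost on leaving out any of EOM_fiber 15, 27 or 29, EOM_synapse 15, 25, 27 or 29, TA_fiber 29, TA_synapse 15 (adjusted p then 0.0501 to 0.128) and with a pseudocount of 1, and the store sensor Stim1 (0.70). Stim1 was lost on leaving out any of EOM_fiber 27 or 29, EOM_synapse 15, 25, 27 or 29 (adjusted p then 0.0605 to 0.118) and with no rat block, with the 8 extraocular arrays alone, with values as deposited or under median centring. The fast calcium pump Atp2a1 (-0.33 ± 0.17) and the triadin gene Trdn (0.10 ± 0.30) were not called.

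Of 13 measured channel and pump genes 2 fell and none rose (median -0.42), where 4.51% of all genes fell. The falls numbered 4 without EOM_fiber 25. Aqp4, the water channel of fast fibres, went from 8.67, 10.46, 9.95 and 10.66 to 6.68, 6.71, 6.86 and 7.75 (-2.94 ± 0.39, adjusted p = 0.000377), and Aqp1 is given above. The sodium pump subunit Atp1b1 stood at 13.62, 13.46, 13.65 and 13.54 and 13.80, 13.998, 14.14 and 13.98 (0.41 ± 0.20, adjusted p = 0.215), every junction array above every fibre array yet without a call. The muscle sodium channel gene Scn4a lay under the filter.

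Of 19 measured enzymes of glycogen and glucose use 7 fell and none rose (median -0.48), and 4 without EOM_fiber 27 or EOM_synapse 15. Fbp2, the muscle fructose bisphosphatase, went from 7.43, 8.05, 8.17 and 8.63 to 5.69, 6.33, 6.29 and 6.94 (-1.76 ± 0.27, adjusted p = 0.000965). Phka1, a subunit of phosphorylase kinase (-1.26 ± 0.19, adjusted p = 0.000875), Pgm1, which feeds glycogen sugar into glycolysis (-1.21 ± 0.18, adjusted p = 0.000807), and the glycerol phosphate enzyme gene Gpd1 (-1.20 ± 0.20, adjusted p = 0.00161) fell too. Pgam2 (-0.83) was lost on leaving out any of EOM_fiber 15, 25 or 27, EOM_synapse 15 or 25 (adjusted p then 0.0503 to 0.0921) and with the 8 extraocular arrays alone. Gys1 (-0.81) was lost on leaving out any of EOM_fiber 25 or 27, EOM_synapse 15, 25, 27 or 29 (adjusted p then 0.0541 to 0.0887) and with the 8 extraocular arrays alone, with values as deposited or under median centring. Phkb (-0.75) was lost on leaving out any of EOM_fiber 15, 27 or 29, EOM_synapse 15 or 27 (adjusted p then 0.0524 to 0.0819) and with the 8 extraocular arrays alone or under median centring. Enolase, Eno3 (0.30 ± 0.17), aldolase, Aldoa (-0.20 ± 0.19), and glycogen phosphorylase, Pygm (-0.26 ± 0.24), were not called.

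Of 27 genes of oxidative phosphorylation and the citrate cycle 2 fell and none rose, where 4.51% of all genes fell (median -0.29): Mdh2 (-0.92 ± 0.27, adjusted p = 0.045), lost on leaving out any of EOM_fiber 15, 25 or 27, EOM_synapse 15, 25, 27 or 29, TA_fiber 15, 27 or 29, TA_synapse 15, 25 or 27 (adjusted p then 0.0541 to 0.136) and with no rat block, with the 8 extraocular arrays alone, under median centring or with a pseudocount of 1. Cox8b (-0.61 ± 0.17, adjusted p = 0.0389) was lost on leaving out any of EOM_fiber 15, 25 or 27, EOM_synapse 15, 25, 27 or 29, TA_fiber 27 or 29, TA_synapse 25 (adjusted p then 0.0527 to 0.114) and with no rat block, with a random rat block, with the 8 extraocular arrays alone or under median centring. The ATP synthase gene Atp5f1b stood at 14.68 ± 0.28 in fibre and 14.73 ± 0.15 at the junction, and the coactivator Ppargc1a at 10.50 ± 0.32 and 10.21 ± 0.28. Of 21 fatty acid genes 6 fell and none rose (median -0.41), with 3 without EOM_fiber 15 or EOM_synapse 27, 2 without EOM_synapse 15, 1 without EOM_synapse 29 and 1 median centred. Ucp3, an uncoupling protein, led (-1.32 ± 0.25, adjusted p = 0.00447) and was lost under median centring. Fabp3 (-1.18) was lost on leaving out any of EOM_fiber 15 or 25, EOM_synapse 15, 27 or 29 (adjusted p then 0.061 to 0.0887). Cpt2 (-1.07) was lost on leaving out EOM_synapse 29 (adjusted p then 0.0563) and under median centring. Pdk4 (-0.96) was lost on leaving out any of EOM_fiber 27, EOM_synapse 15 or 29 (adjusted p then 0.0507 to 0.0625) and with no rat block, with a random rat block or under median centring. Cd36 (-0.89) was lost on leaving out any of EOM_fiber 15, 27 or 29, EOM_synapse 15, 25, 27 or 29, TA_fiber 27, TA_synapse 25 or 27 (adjusted p then 0.0506 to 0.144) and with no rat block, with the 8 extraocular arrays alone, with values as deposited, under median centring or with a pseudocount of 1. Cpt1b (-0.80) was lost on leaving out any of EOM_fiber 15 or 25, EOM_synapse 15, 25, 27 or 29 (adjusted p then 0.0611 to 0.13) and with no rat block, with a random rat block, with the 8 extraocular arrays alone, with values as deposited or under median centring.

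Of 18 measured myogenic genes 1 rose and 1 fell, where 5.62% of all genes rose and 4.51% fell. Fst, follistatin, which blocks myostatin, went from 8.11, 7.54, 8.99 and 9.17 to 10.56, 10.83, 11.32 and 10.65 (2.39 ± 0.29, adjusted p = 0.000146), and the stretch gene Ankrd1 from 6.70, 6.85, 8.07 and 8.71 to 5.70, 4.21, 4.88 and 6.95 (-2.15 ± 0.41, adjusted p = 0.00461), with overlap. Myog stood at 8.06, 7.80, 7.30 and 8.14 and 8.50, 8.43, 8.21 and 8.10 (0.49 ± 0.25, adjusted p = 0.249), and Myod1 at 9.48, 9.71, 9.85 and 9.87 and 9.56, 9.07, 9.46 and 9.81 (-0.25 ± 0.21, adjusted p = 0.509). These regulators, which rise after denervation, were not called. Of 11 immediate early genes, which respond to handling, Egr1 rose (1.69 ± 0.41, adjusted p = 0.0197), lost on leaving out any of EOM_fiber 25 or 29, EOM_synapse 27 or 29 (adjusted p then 0.0544 to 0.077) and with a pseudocount of 1. Jun fell (-0.84 ± 0.18, adjusted p = 0.00889), lost with no rat block, with a random rat block, with the 8 extraocular arrays alone, under median centring or without rat 25 or 29 (adjusted p then up to 0.08). Of 8 complement genes C1s rose (0.88 ± 0.21, adjusted p = 0.0167), lost on leaving out any of EOM_fiber 15, EOM_synapse 27 (adjusted p then 0.0571 to 0.0677) and with no rat block or under median centring. Clusterin, Clu, fell from 8.34, 8.33, 8.05 and 8.20 to 6.56, 7.31, 7.17 and 6.85 (-1.26 ± 0.24, adjusted p = 0.00514), lost without rat 15 (adjusted p then 0.0585).

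Some of the 15 largest rises and the 15 largest falls that ran the same way in all rats belong to none of these lists. Among the rises were Elovl2, an enzyme of long fatty acid synthesis, from 4.10, 4.95, 4.78 and 4.29 to 8.59, 8.65, 8.52 and 8.31 (3.99 ± 0.27, adjusted p = 1.02e-06). Nog, noggin, a blocker of bone morphogenetic proteins, went from 7.17, 6.10, 6.23 and 4.49 to 10.40, 10.19, 9.22 and 9.60 (3.85 ± 0.34, adjusted p = 8.55e-06). Ptprz1, a receptor phosphatase of glia, went from 5.39, 5.34, 4.62 and 4.30 to 8.92, 8.32, 8.51 and 9.09 (3.80 ± 0.29, adjusted p = 3.05e-06). Ttyh1, a membrane protein of neural cells, went from 4.34, 7.27, 6.22 and 5.06 to 9.53, 9.41, 10.004 and 9.33 (3.85 ± 0.45, adjusted p = 0.000134), and the guidance gene Sema3e from 7.12, 5.98, 6.36 and 6.38 to 10.77, 10.26, 9.75 and 9.66 (3.65 ± 0.27, adjusted p = 2.26e-06). None of these 5 had overlapping groups.

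Of the falls, Car3, carbonic anhydrase 3 of slow fibres, went from 12.72, 12.78, 11.69 and 12.56 to 7.72, 8.24, 7.21 and 8.57 (-4.50 ± 0.28, adjusted p = 5.27e-07), and its second probe set gave -3.07. Prkag3, the fast-fibre subunit of the AMP-activated kinase, went from 8.46, 9.74, 8.55 and 8.75 to 6.84, 6.82, 6.23 and 6.77 (-2.21 ± 0.28, adjusted p = 0.000212). Cdkn1c, a cell cycle inhibitor, went from 11.79, 11.75, 12.08 and 12.49 to 9.91, 9.87, 9.87 and 10.60 (-1.96 ± 0.32, adjusted p = 0.00138). Ablim1, an actin-binding protein (-1.96 ± 0.31, adjusted p = 0.00126), and the phosphatase gene Ptpn3 (-1.88 ± 0.38, adjusted p = 0.00703) fell as well, with Ptpn3 lost without rat 15 (adjusted p then 0.0557). Cldn8, a claudin, differed by -2.17 ± 0.46, adjusted p = 0.00932, lost with a pseudocount of 1 or without rat 15 (adjusted p then 0.0836). Its junction arrays were near the lower end of the scale, at 4.25, 4.46, 4.28 and 4.61.

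The junction difference in extraocular muscle was set against that in TA by a test of the difference between them, since both muscles came from the same rats. It called 96 of 10416 genes (0.922%), 27 with the higher difference in extraocular muscle (0.259%) and 69 with the lower one (0.662%), and 46 of the calls held without any 1 array. The count was 63, 56 and 59 without EOM_synapse 25, 27 or 29, and 60 and 58 without TA_synapse 15 or 29. Of the 27, 24 were also called higher at the extraocular junction. Of the 69, 42 were not called in extraocular muscle, 14 were called lower there and 13 higher.

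Among the genes with the higher difference in extraocular muscle, Prom2, a membrane protein of the prominin family, went from 7.14, 6.78, 5.90 and 6.31 to 10.05, 9.96, 9.59 and 9.38 in extraocular muscle, a difference of 3.21 ± 0.20, and differed by -1.08 ± 0.20 in TA (interaction 4.29 ± 0.29, adjusted p = 8.58e-06). The calcium-binding channel partner Kcnip3 differed by 3.64 ± 0.46 and 0.13 ± 0.46 (interaction 3.51 ± 0.65, adjusted p = 0.0196), lost on leaving out any of EOM_fiber 25, EOM_synapse 15, 25 or 27, TA_synapse 15 (adjusted p then 0.051 to 0.0593) and with a pseudocount of 1 or without rat 15, 25 or 27. The exchanger gene Slc24a2 differed by 3.41 ± 0.43 and 0.0062 ± 0.43 (interaction 3.41 ± 0.61, adjusted p = 0.0176), lost on leaving out EOM_synapse 27 (adjusted p then 0.057) and with a pseudocount of 1 or without rat 25, 27 or 29. Septin6 differed by 2.37 ± 0.40 and -0.97 ± 0.40 (interaction 3.34 ± 0.57, adjusted p = 0.0117), lost with a pseudocount of 1 or without rat 25, 27 or 29, and Fgf12, a growth factor homologue inside cells, by 2.70 ± 0.36 and -0.42 ± 0.36 (interaction 3.11 ± 0.51, adjusted p = 0.0105), lost with a pseudocount of 1 or without rat 15, 25 or 27. All 5 were called higher at the extraocular junction. In TA, Prom2 was called lower (adjusted p = 0.00365) and the other 4 were not called. All 5 were dim in both TA captures, on a scale that starts at 4.03. Their TA group means ran from 4.64 (Septin6 at the junction) to 6.63 (Prom2 in fibre), so the TA differences are between low values.

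In the other direction, the 5 largest were Nptx1, a neuronal pentraxin, Calml4, Cacna2d3, a calcium channel subunit, Car3 and Gmfg. Nptx1 stood at 5.66, 5.28, 5.22 and 6.40 in extraocular fibre and 6.25, 6.03, 5.49 and 5.88 at the junction, a difference of 0.27 ± 0.67, against 6.77 ± 0.67 in TA (interaction -6.50 ± 0.94, adjusted p = 0.00478), a call lost without rat 15 or 27. Calml4 differed by 0.33 ± 0.39 against 5.67 ± 0.39, Cacna2d3 by -0.34 ± 0.25 against 4.44 ± 0.25, and Gmfg by -0.68 ± 0.26 against 4.02 ± 0.26. For Car3 the values were -4.50 ± 0.28 and 0.21 ± 0.28 (interaction -4.72 ± 0.39, adjusted p = 3.54e-05), a called fall in extraocular muscle beside no call in TA. Car3 was bright in TA, at 13.94 ± 0.31 in fibre and 14.15 ± 0.070 at the junction, on a scale that ends at 15.59. Whether that end limited its TA difference was not tested.

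Several genes, junction genes among them, had a smaller junction difference in extraocular muscle than in TA. Chrna1 differed by 3.85 ± 0.32 against 6.75 ± 0.32 (interaction -2.89 ± 0.45, adjusted p = 0.00698). Its fibre level was 8.96 ± 0.28 in extraocular muscle and 5.43 ± 0.98 in TA. At the junction it stood at 12.81 ± 0.11 in extraocular muscle and 12.18 ± 0.20 in TA. The levels of the muscles were not tested against each other at either site. For Chrne the interaction was 0.33 ± 0.45 (adjusted p = 0.858) and for Chrnd -1.07 ± 0.42 (adjusted p = 0.339), neither called. The interaction of Chrna1 was lost with a pseudocount of 1 or without rat 15 or 29. Phldb2 (-2.38 ± 0.37, adjusted p = 0.00722) was called, but not without rat 15, 27 or 29. Also called were Etv4 (-2.88 ± 0.35, adjusted p = 0.0011), lost with a pseudocount of 1 or with the filter at 8 arrays, and Plvap (-3.10 ± 0.53, adjusted p = 0.0117), lost with a pseudocount of 1 or without rat 15, 25 or 27. Lrp4 (-1.75 ± 0.31, adjusted p = 0.0175) was lost on leaving out any of EOM_synapse 29, TA_synapse 15 or 29 (adjusted p then 0.0512 to 0.0529) and with no rat block, under median centring or without any 1 rat. Lama2 (-1.78 ± 0.37, adjusted p = 0.0407) was lost on leaving out any of EOM_fiber 15, 25 or 27, EOM_synapse 15, 25, 27 or 29, TA_fiber 15, 25 or 27, TA_synapse 15, 25 or 29 (adjusted p then 0.0514 to 0.103) and with no rat block, with a random rat block, under median centring, with a pseudocount of 1, with no filter or without any 1 rat. Fgf1 (-1.63 ± 0.28, adjusted p = 0.0117) and Col1a1 (-1.60 ± 0.24, adjusted p = 0.00528) had extraocular differences of 0.17 ± 0.20 and 0.06 ± 0.17 against 1.79 ± 0.20 and 1.66 ± 0.17 in TA. Fgf1 was lost with no rat block, under median centring, with the mean of its probe sets or without any 1 rat, and Col1a1 with no rat block, with a random rat block, under median centring, with the mean of its probe sets or without rat 15, 27 or 29.

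Further genes named here with a called interaction included Myom2 (-3.33 ± 0.32 against 0.095 ± 0.32, adjusted p = 0.00207). Myom2 was bright in TA, at 14.06 ± 0.23 in fibre and 14.16 ± 0.035 at the junction, on a scale that ends at 15.59. Whether that end limited its TA difference was not tested. Prkag3 (-2.21 ± 0.28 against 0.035 ± 0.28, adjusted p = 0.0133, lost under median centring or without rat 15, 27 or 29) and Cdkn1c (-1.96 ± 0.32 against 1.02 ± 0.32, adjusted p = 0.00574, lost without rat 15 or 29) were called too. Mybpc2 (interaction -1.45 ± 0.28, adjusted p = 0.0285) was lost on leaving out any of EOM_fiber 25 or 27, EOM_synapse 15, 25 or 27, TA_fiber 15, 25 or 29, TA_synapse 15, 25, 27 or 29 (adjusted p then 0.0506 to 0.0768) and with no rat block, with values as deposited, under median centring, with a pseudocount of 1, with no filter or without any 1 rat. Gpd1 (-1.53 ± 0.28, adjusted p = 0.0185) was lost on leaving out any of EOM_synapse 25, TA_synapse 15 or 29 (adjusted p then 0.0507 to 0.0514) and under median centring, with the mean of its probe sets or without any 1 rat. Fst (1.998 ± 0.40, adjusted p = 0.0326) was lost on leaving out any of EOM_fiber 27, EOM_synapse 15, 25 or 27, TA_fiber 15, 25, 27 or 29, TA_synapse 15 or 29 (adjusted p then 0.0545 to 0.0843) and with no rat block, with a random rat block, with values as deposited, with a pseudocount of 1, with no filter or without any 1 rat. Elovl2 (1.94 ± 0.39, adjusted p = 0.0314) was lost on leaving out any of EOM_fiber 25 or 29, EOM_synapse 15, 25, 27 or 29, TA_fiber 15, 25 or 29, TA_synapse 15, 25, 27 or 29 (adjusted p then 0.0513 to 0.0818) and under median centring, with a pseudocount of 1, with no filter or without any 1 rat. For Myh3 the interaction was -4.48 ± 1.08 (adjusted p = 0.0819), for Myh2 -1.52 ± 0.35 (0.0691), for Casq1 -1.33 ± 0.30 (0.0544) and for Map2k1 -0.028 ± 0.28 (0.989), none of them called.

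**Figure D5:**
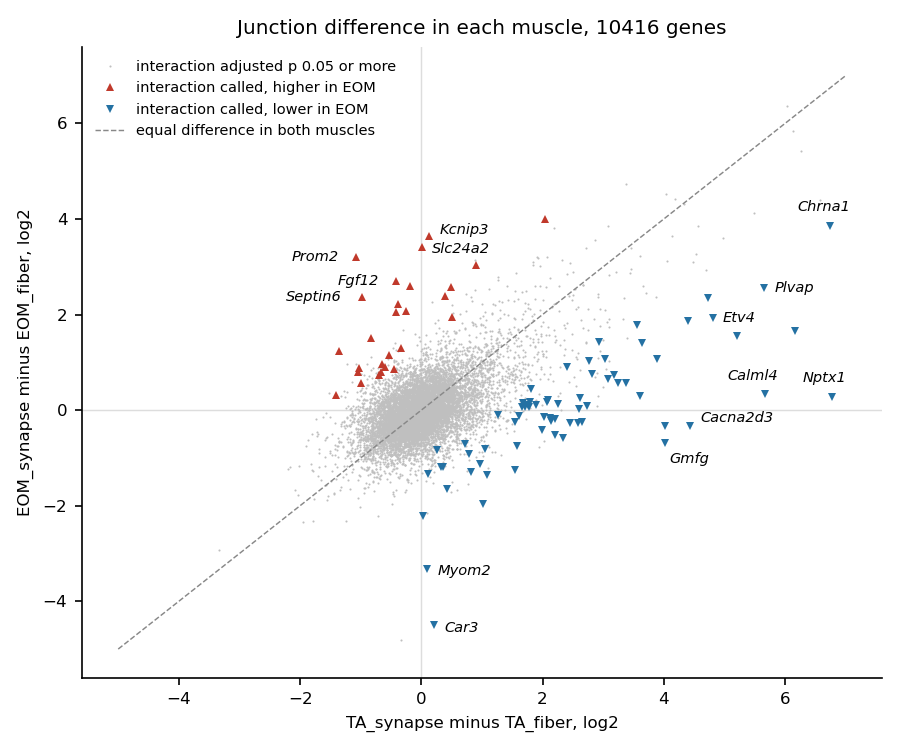
Junction difference (log2) of each of 10416 genes in TA (horizontal axis) and extraocular muscle (vertical axis), with the 96 genes whose difference between the muscles had an adjusted p under 0.05 as triangles. Chrna1 lies to the right of the dashed line of equal differences, and Car3 and Myom2 lie near 0 in TA and below -3 in extraocular muscle.

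Fitted to all 31042 probe sets with no filter and no choice among probe sets, the same model called 831 (2.68%), 573 higher (1.85%) and 258 lower (0.831%). Of these 831, 148 higher and 51 lower probe sets had no single gene name and are not described. The rest fell in 576 named genes.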

How the data were processed

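RNA from laser-cut tissue was amplified in 2 cycles, with the first product set to 600 ng, and measured on an Affymetrix rat array, per the labels' protocols. The deposited values are linear intensities per probe set. The summarising software is not stated in any source used here. The 2% trimmed mean of each extraocular array was 150.06 to 150.07, so the arrays were scaled to a common mean before deposit, per the deposited values themselves. Genes were named through the platform table and RefSeq GRCr8: of 31099 probe sets 20826 had 1 gene, 436 several and 9780 none, and 57 controls were left out.

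Intensities plus 16 were taken to log2 and quantile normalized. A gene was its brightest probe set above the array median in at least 4 of 16 arrays. limma 3.58.1 (R 4.3.3) was fitted to all 16 arrays with a mean per group (4) and rat as fixed block (residual df 9, prior df 4.58). The script was tested on simulated data. The labels name 4 rats, take both muscles from all of them and repeat the same 4 numbers in each group, so equal numbers were read as 1 animal, which the labels do not state. The 24 same-number pairs of arrays correlated in their deviations from the group means at 0.112 on average, from -0.0666 to 0.245, 16 of them over 0.1. The replicates are 4 animals, and their number limits precision. Alternatives covered the block, the arrays fitted, scaling, pseudocount, filter, probe sets and leaving out arrays or rats.

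The members and gene lists were chosen with earlier results of these data known. Genes named were the 15 largest rises and 15 largest falls with the same sign in 4 of 4 rats, the 5 largest interactions of each sign, and list members: the largest calls, plus all of the receptor, agrin, ERK, cleft matrix and myosin lists. Other list members named without a call were chosen after their values were seen.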

Additional observations from a re-analysis of the deposited data

Results flagged for a closer look

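Among 540 groups of 4 extraocular arrays, for 270 named genes, 32 had 1 array whose gap to the nearest other was most of the group's range (Dixon's test at 95%), where chance gives about 1 in 20. Levels in brackets are on the quantile-normalized log2 scale. EOM_fiber 15 stood above the other arrays of its group for Col4a2 (7.85), Myh13 (14.66), Pdzrn4 (4.22) and Pgam2 (13.00). EOM_fiber 15 stood below the other arrays of its group for Cacna1s (9.11), Dcn (10.14), Hspa5 (11.02), Lama5 (4.81) and Ttn (13.32). EOM_fiber 25 stood above the other arrays of its group for Dag1 (10.65), Myh10 (9.21) and Myh4 (15.33). EOM_fiber 27 stood above the other arrays of its group for Dusp6 (8.32). EOM_fiber 27 stood below the other arrays of its group for Casq1 (12.61) and Myl3 (10.17). EOM_fiber 29 stood below the other arrays of its group for Prx (4.30). EOM_synapse 15 stood above the other arrays of its group for Gys1 (9.35) and Tpm1 (15.20). EOM_synapse 15 stood below the other arrays of its group for Erbb2 (6.54), Pdia3 (9.84) and Pdlim3 (10.18). EOM_synapse 25 stood above the other arrays of its group for Myh13 (13.73) and Rapsn (7.89). EOM_synapse 25 stood below the other arrays of its group for Bche (6.16) and Notch3 (4.62). EOM_synapse 27 stood above the other arrays of its group for Chrng (6.04) and Cnp (9.15). EOM_synapse 27 stood below the other arrays of its group for Prkag3 (6.23) and Vegfa (9.70). EOM_synapse 29 stood above the other arrays of its group for Aqp4 (7.75) and Cdkn1c (10.60). EOM_synapse 29 stood below the other arrays of its group for Tnnc2 (15.20). For Tnnc2 and Tpm1 the other arrays of the group shared the same value, 15.26 and 15.07, so any gap would have passed this test.

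The junction difference differed between extraocular muscle and TA, by the interaction test with limma, for these named genes. The extraocular difference minus the TA difference was negative for Nptx1 (-6.50), Calml4 (-5.34), Cacna2d3 (-4.78), Car3 (-4.72), Gmfg (-4.69), Myom2 (-3.42), Plvap (-3.10), Cdkn1c (-2.98), Chrna1 (-2.89), Etv4 (-2.88), Phldb2 (-2.38), Prkag3 (-2.25), Lama2 (-1.78), Lrp4 (-1.75), Fgf1 (-1.63), Col1a1 (-1.60), Gpd1 (-1.53) and Mybpc2 (-1.45). It was positive for Elovl2 (1.94), Fst (2.00), Ptn (2.15), Fgf12 (3.11), Septin6 (3.34), Slc24a2 (3.41), Kcnip3 (3.51) and Prom2 (4.29). Their adjusted p ran from 8.58e-06 to 0.0407, and the arrays and settings that end a call stand with the values above, save Ptn, lost on leaving out any of EOM_fiber 25, EOM_synapse 15, 25, 27 or 29, TA_fiber 15, 27 or 29, TA_synapse 27 or 29 (adjusted p then 0.0734 to 0.0949) and with no rat block, under median centring, with a pseudocount of 1, with no filter or without any 1 rat.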

How the results depend on the processing

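The 1055 differing genes (585 higher, 470 lower) numbered 688 with the 8 extraocular arrays alone and also 688 under median centring, where the lower genes were 239 and 142. Leaving out 1 array gave 635 to 1126 in all, 401 to 623 higher and 228 to 503 lower, and leaving out 1 rat gave 475 to 612, 322 to 407 and 150 to 205. Without the replicate block, the pairing by rat, 831 genes were called (482 higher, 349 lower). The 96 interactions numbered 56 under median centring, 46 with a pseudocount of 1 and 217 with one of 64, 56 to 101 without 1 array and 25 to 33 without 1 rat. Trdn, not called in the main fit, changed sign with the mean of its probe sets (-0.68), and no called gene named here changed sign under any alternative. Sign changes of genes called neither in the main fit nor in the alternative were not counted. Medians near 0 did: that of all genes from -0.039 to 0.080 under median centring, that of the agrin list from 0.085 to -0.0068 without rat 15, and that of the membrane cytoskeleton list from 0.039 to values as low as -0.099, with the filter at 8 arrays. The cause of these moves was not tested, except that leaving out arrays or rats leaves fewer samples. Dim genes such as Chrng, and bright ones near 15.59, are limited by the ends of the signal range, and genes under the filter have no call.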

Other observations

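The next genes lie outside the lists and were picked after their values were seen, as called genes known from glia and nerve, so their shared direction is no finding. Lgi4, a Schwann cell signal needed for myelination, went from 5.65, 6.56, 6.15 and 6.08 to 9.40, 9.07, 9.26 and 9.28 (3.14 ± 0.24, adjusted p = 2.67e-06), and the adhesion gene Chl1 from 5.46, 5.88, 4.42 and 5.86 to 8.24, 8.89, 8.02 and 8.77 (3.07 ± 0.28, adjusted p = 1.29e-05). Scn7a, a sodium channel of glia, differed by 3.11 ± 0.33, adjusted p = 5.18e-05, the growth factor gene Ptn by 3.05 ± 0.32, adjusted p = 4.37e-05, and Dhh, a hedgehog ligand made by Schwann cells, by 1.94 ± 0.41, adjusted p = 0.00907, lost without rat 15 (adjusted p then 0.0742). The potassium channels of myelinated axons, Kcna2 (2.27 ± 0.35, adjusted p = 0.000986) and Kcna1 (1.73 ± 0.34, adjusted p = 0.00516), rose too. Matn2 (2.93), Apod (2.89), Cadm1 (2.87), Slitrk1 (3.10), Cldn11 (1.80) and Nes (3.10), which encodes nestin, were called higher, as was the Wnt inhibitor Sfrp5 (3.20). In each of these genes every junction array was above every fibre array.

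Among falls outside the lists, Plin4, a lipid droplet coat, went from 10.65, 10.38, 9.98 and 9.88 to 9.26, 8.38, 8.11 and 8.24 (-1.73 ± 0.22, adjusted p = 0.000232), and Dgat2, which makes triglyceride, from 8.86, 8.74, 8.24 and 8.73 to 7.45, 6.94, 6.46 and 6.79 (-1.73 ± 0.27, adjusted p = 0.00114). The lactate carrier Slc16a3 differed by -1.80 ± 0.27, adjusted p = 0.000783, and the carbonic anhydrases Car14 and Car4 by -1.57 ± 0.24, adjusted p = 0.00117 and -1.48 ± 0.30, adjusted p = 0.00747, with Car4 lost without rat 15 or 25 (adjusted p then up to 0.0887). Ak4 (-1.76) was lost with a pseudocount of 1, and the sodium channel Scn1a (-1.39) with a pseudocount of 1 or without rat 29 (adjusted p then 0.0592). The cardiac troponin Tnnt2 (-1.80 ± 0.47, adjusted p = 0.0259) was lost on leaving out any of EOM_fiber 15, 25 or 27, EOM_synapse 15, 27 or 29 (adjusted p then 0.0563 to 0.0986) and with no rat block or with a pseudocount of 1.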
